A study of Rattus norvegicus with 18 samples.

Results

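The genes described here build the hemoglobin, the heme and the membrane of red blood cells, and they were followed through the healing of a femoral fracture in the rat. They are Hbb, Hba-a3, Alas2 and Slc4a1, and every probe set that the array's annotation assigns to one of these symbols alone was taken, which gave 6 probe sets for 4 of the 4736 genes on the array, out of 8799 probe sets. Slc4a1 had 3 of them, called the first, the second and the third here in order of brightness, and each other gene had 1. The third Slc4a1 probe set was too dim to be tested, which left 5 probe sets among 4669 tested. Another 2 probe sets carry a globin symbol of this set together with other globin symbols and are described apart.

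The tissue was the middle part of the femur, centred on the break, of intact female Sprague-Dawley rats, with callus, cortical bone and marrow together, so the marrow between the bone ends was part of each sample. The femur held an intramedullary rod and was broken by a closed fracture, and tissue was taken after 3 days or after 1, 2, 4 or 6 weeks. Sham controls had no fracture. They were young (6 weeks old), adult (26 weeks old) or older (52 weeks old) at surgery. Every array held RNA pooled from 2 rats. The study ran further arrays that were not used here, and the 18 arrays described are 1 for each age and time, so the 3 ages were the replicates of a time (n = 3 arrays).

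Red cells are made in the marrow from precursors that fill themselves with hemoglobin before they lose their nucleus. Alas2 makes the enzyme that starts heme synthesis in these precursors, Hbb and Hba-a3 encode beta and alpha chains of hemoglobin, and Slc4a1 encodes the anion exchanger called band 3, the most abundant protein of the red cell membrane. The transcription factor Gata1 is a master regulator of genes of this kind. In a whole tissue sample, fewer erythroid cells and less RNA per cell cannot be told apart.

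In the rat genome (RefSeq, GRCr8) Hbb lies at chr1:167662310-167663721 on the minus strand, Hba-a3 at chr10:15816099-15816943 on the minus strand, Slc4a1 at chr10:87807010-87823274 and Alas2 at chrX:22890650-22914046. The 250 bases upstream of Hbb (chr1:167663722-167663971, minus strand) and of Hba-a3 (chr10:15816944-15817193, minus strand) are shown, because these genes moved together and the bases before a globin gene hold the boxes by which erythroid cells start it. They run 5′ to 3′ and end at the base before the annotated start. Capitals mark a match on either strand to the letters of a GATA motif (GATAA), to those of a CACC box (CACCC), to those of a CCAAT box (CCAAT), to the usual TATA box (TATAAA) or to the form of it that beta globin genes carry (CATAAA).
Hbb: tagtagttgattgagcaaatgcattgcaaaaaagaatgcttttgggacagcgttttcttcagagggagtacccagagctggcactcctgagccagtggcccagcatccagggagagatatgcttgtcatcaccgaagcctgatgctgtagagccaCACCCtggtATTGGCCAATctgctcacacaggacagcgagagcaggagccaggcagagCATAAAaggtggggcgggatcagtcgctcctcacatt
Hba-a3: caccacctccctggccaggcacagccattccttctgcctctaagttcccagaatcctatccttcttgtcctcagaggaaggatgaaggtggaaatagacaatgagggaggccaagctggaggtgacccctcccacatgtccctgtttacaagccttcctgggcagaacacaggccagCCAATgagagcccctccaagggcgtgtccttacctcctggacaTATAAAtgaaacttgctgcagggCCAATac
Hbb held a CACC box at bases -95 to -91, a CCAAT box on the minus strand at -86 to -82 and another on the plus strand at -81 to -77, and the beta globin form of the TATA box at -37 to -32. Hba-a3 held a CCAAT box at -73 to -69 and another at -7 to -3, and a usual TATA box at -30 to -25. None of these matches overlapped another. The GATA motif had no match in either window, which says only that these letters are not there. Of 33469 rat windows of the same length, 23.5% held the GATA motif, 49.2% the CACC box, 34% the CCAAT box, 12.9% the usual TATA box and 11.4% its beta globin form, so a match marks no site by itself. For Alas2 the RefSeq window began 4550 bases inside the annotated gene, so it was not taken as its promoter. None is shown for Slc4a1.

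The erythroid genes were low early after fracture and higher again within weeks. Signals are intensities in arbitrary units. Hbb, the beta globin gene, was among the 8 brightest probe sets of every array without fracture and of every array at 4 and 6 weeks. In young rats its signal was 31687 without fracture, 10225 at 3 days, 11695 at 1 week, 25991 at 2 weeks, 25125 at 4 weeks and 46547 at 6 weeks. In adult rats the same times gave 40559, 4575, 6830, 6765, 31118 and 37472. In older rats they gave 36569, 5136, 3027, 5995, 24008 and 21893. All 3 arrays of 3 days, of 1 week, of 2 weeks and of 4 weeks lay below all 3 arrays without fracture. At 4 weeks the highest was 31118, against 31687 for the lowest without fracture. How many of all probe sets separate in this way was not counted. The lowest signal of the 18 was in the older rats at 1 week.

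Hba-a3, an alpha globin gene, moved over a wider range, 93.4-fold between its lowest and highest array against 15.4-fold for Hbb, and its highest rank on an array was 56, where Hbb ranked 1 on 2 arrays. The part of brightness in that difference was not tested. In young rats its signal was 5612 without fracture, 462 at 3 days, 394 at 1 week, 3846 at 2 weeks, 6267 at 4 weeks and 10417 at 6 weeks. In adult rats it was 6629, 174, 317, 222, 4400.5 and 7393 at the same times. In older rats it was 16230.4, 211, 192, 349, 6869 and 2509. The older array without fracture was the highest of all 18, and the older array at 6 weeks was the lowest of the 6 arrays of 4 and 6 weeks.

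Alas2, whose enzyme controls how much heme an erythroid precursor makes, followed Hba-a3. In young rats its signal was 8394 without fracture, 839 at 3 days, 1104 at 1 week, 5467 at 2 weeks, 5790 at 4 weeks and 9407 at 6 weeks. In adult rats the signal was 10014, 333, 692, 705, 4900 and 5928. In older rats it was 15441, 567.9, 487, 674, 7791 and 2212. Only in young rats did any array after fracture pass the array without fracture of the same age at surgery, at 6 weeks.

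Slc4a1, the band 3 gene, was read by probe sets of very different brightness. The first had signals of 5198 without fracture, 248 at 3 days, 360 at 1 week, 2596 at 2 weeks, 2078 at 4 weeks and 1680 at 6 weeks in young rats. In adult rats it had 3359, 131, 192, 184, 2517 and 1949, and in older rats 9247, 134, 124, 126, 4023 and 1724. The second ran from 271 to 2360 over the 18 arrays. The 3 arrays at 6 weeks lay below all 3 arrays without fracture in each of these probe sets, at 1784 ± 145 against 5935 ± 3013 for the first and 549 ± 105 against 1469 ± 824 for the second (SD, n = 3 each). The share of all probe sets that separate in this way was not counted, and the main test below called neither lower at 6 weeks. The third probe set never exceeded 145.

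**Figure D1:**
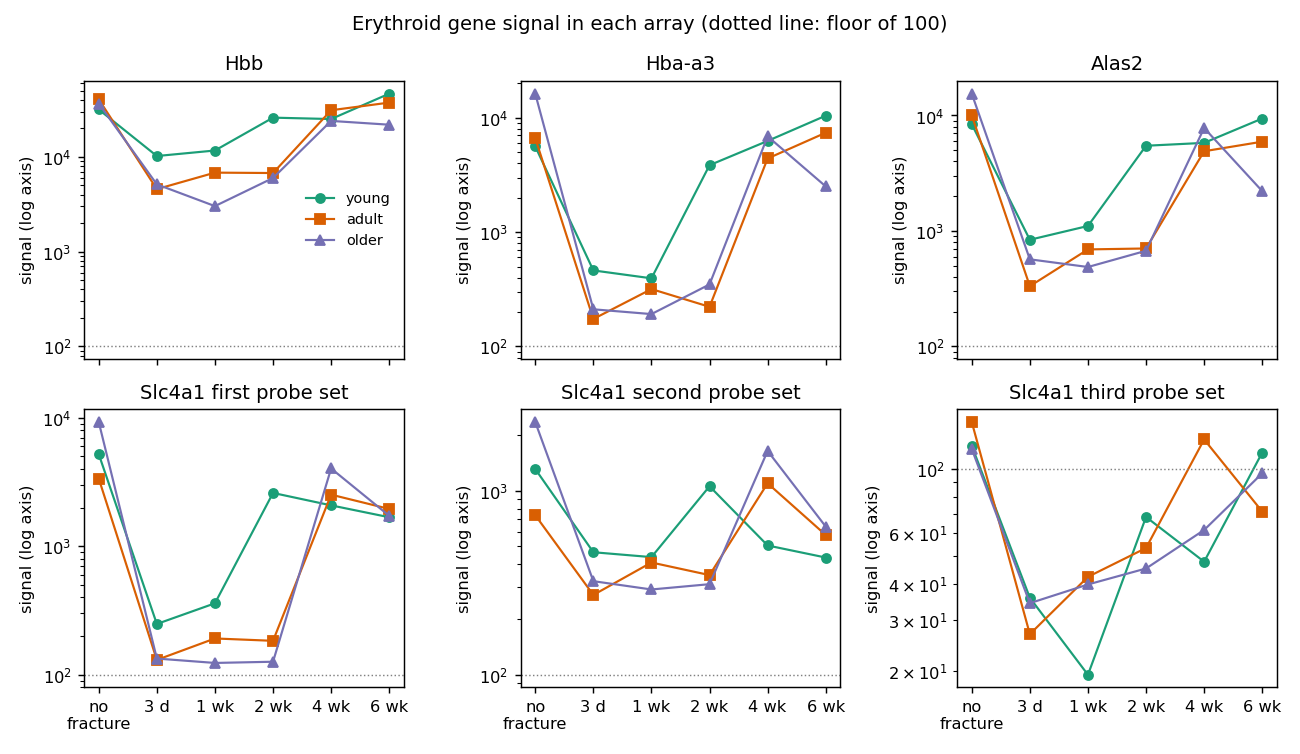
Signal of each probe set (log axis, arbitrary units) by time, with 1 point per array and 1 line per age. Every probe set was low at 3 days and 1 week. At 2 weeks the young line stood above the others for the 5 tested probe sets. Hba-a3, for example, had 3846 in young, 222 in adult and 349 in older rats. The third Slc4a1 probe set lay below the floor set for dim signals at every age at 2 weeks, so its ages have no order there.

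The first question was how every time point differed from no fracture. By limma over all 4669 probe sets, with age as a term, all 5 tested probe sets fell at 3 days, where 19.7% of the probe sets tested were called lower. Hba-a3 fell by 5.04 ± 0.70 on the log2 scale (SE), a 32.9-fold change with adjusted p = 7.14e-05, and the first Slc4a1 probe set fell by 5.06 ± 0.71 (adjusted p = 8.14e-05). Alas2 fell by 4.33 ± 0.57 (adjusted p = 4.57e-05) and Hbb by 2.54 ± 0.39 (adjusted p = 1.57e-04). The second Slc4a1 probe set fell by 1.94 ± 0.49 (adjusted p = 0.00519), much less than the first probe set of the same gene, and it was not called by the methods' t-test (adjusted p = 0.0801).

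All 5 also passed as lower at 1 week (10.5% of the probe sets tested were called lower) and at 2 weeks (8.27%). At 1 week the log2 changes were -4.87 ± 0.70 for Hba-a3, -4.74 ± 0.71 and -1.82 ± 0.49 for the Slc4a1 probe sets, -3.92 ± 0.57 for Alas2 and -2.53 ± 0.39 for Hbb (limma adjusted p at most 0.0129). At 2 weeks they were -3.66 ± 0.70 for Hba-a3, -3.80 ± 0.71 and -1.44 ± 0.49 for Slc4a1, -2.99 ± 0.57 for Alas2 and -1.83 ± 0.39 for Hbb (adjusted p at most 0.0485). Without the adult arrays 0 of 5 probe sets were called at 2 weeks, and without the older arrays 1 was, Alas2. Over all 4669 probe sets these fits called 249 and 423 in either direction, against 984 with all arrays. The second Slc4a1 probe set lost its 1 week call with no filter (adjusted p = 0.0687), without the adult (0.0528) or the older arrays (0.15) and without the older array of 1 week (0.0766) or of no fracture (0.075). Among the fits that left out 1 array its 2 weeks call held only with the young 2 weeks, the young 4 weeks, the adult no fracture or the older 4 weeks array left out, and was lost without any other array (adjusted p between 0.0509 and 0.263). It was also lost with floors of 20 (adjusted p = 0.052) and 200 (0.0618), with no filter (0.167) and with no replicate block (0.055). The methods' t-test called 0 of 5 at 1 week and 0 of 5 at 2 weeks after adjustment, where it called 1 and 18 of all 4669 probe sets, so these counts say nothing particular about the erythroid genes.

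At 4 weeks limma called 0 of 5 probe sets and at 6 weeks again 0 of 5, where 1.43% and 1.2% of the probe sets tested were called lower. At 4 weeks 0 of 5 had an unadjusted p under 0.05 and at 6 weeks 2 of 5 had, both of Slc4a1. The methods' t-test called 0 at both times, over all 4669 probe sets as well. The log2 differences at 6 weeks were -0.10 ± 0.39 for Hbb, -0.55 ± 0.70 for Hba-a3, -1.13 ± 0.57 for Alas2, and -1.61 ± 0.71 (adjusted p = 0.222) and -1.28 ± 0.49 (adjusted p = 0.154) for Slc4a1. Without the young arrays Alas2 was called lower at 6 weeks (adjusted p = 0.0492), and without the young 2 weeks array the first Slc4a1 probe set was (adjusted p = 0.0415).

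**Figure D2:**
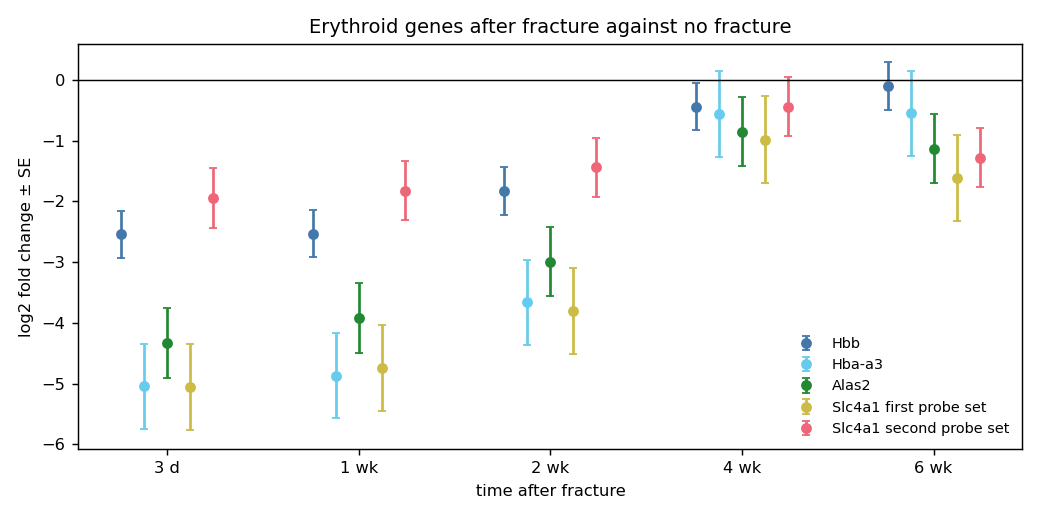
Log2 fold change (points) ± SE (bars) of the 5 tested probe sets for the 5 times after fracture, all set against no fracture. All 5 lie below 0 at 3 days, 1 week and 2 weeks, and Hbb is at -0.10 by 6 weeks.

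The return was tested by setting 4 and 6 weeks against 1 and 2 weeks. With limma 4 of 5 probe sets rose, against 6.58% of all probe sets tested. Hba-a3 rose by 3.71 ± 0.49 on the log2 scale (adjusted p = 2.35e-04), the first Slc4a1 probe set by 2.97 ± 0.51 (adjusted p = 0.00165), Alas2 by 2.46 ± 0.40 (adjusted p = 0.00116) and Hbb by 1.91 ± 0.28 (adjusted p = 4.64e-04). The second Slc4a1 probe set differed by 0.77 ± 0.35 (adjusted p = 0.167). It passed without the young arrays (adjusted p = 0.0195), without the young 2 weeks array (0.0368) and without the young 4 weeks array (0.0478). Without the adult arrays 1 of 5 was called, Hba-a3, where 62 of all 4669 probe sets were called in either direction, against 569 with all arrays.

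At 2 weeks the ages stood apart. The young array had 25991 for Hbb against 6765 in adult and 5995 in older rats, and it had 3846 for Hba-a3, 5467 for Alas2 and 2596 for the first Slc4a1 probe set, where the adult and older arrays had between 126 and 705. With 1 array per age there is no test of a single time. As a description chosen after the values were seen, 3 of 5 probe sets were more than 4-fold higher in the young array than in both others, and 0.514% of all tested probe sets were. The fold over the higher of the other ages was 14.1 for the first Slc4a1 probe set, 11 for Hba-a3, 7.75 for Alas2, 3.84 for Hbb and 3.04 for the second Slc4a1 probe set. As a share of the array without fracture of the same age, Hba-a3 stood at 68.5% in young, 3.35% in adult and 2.15% in older rats. By 4 weeks it stood at 112%, 66.4% and 42.3%. The 4 weeks signals themselves were 6267, 4400.5 and 6869, so the older array was the highest there. Its lower share came with the higher signal of the older array without fracture, 16230.4 against 5612 and 6629.

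The ages were compared next. The fit took the 15 arrays of fractured femora and held time as a factor. In older against young rats limma called 0 of 5 probe sets lower, where 0.0643% of the probe sets tested were, and 4 of 5 had an unadjusted p under 0.05. The log2 difference was -1.24 ± 0.27 for Hbb (adjusted p = 0.0575), -1.51 ± 0.46 for Hba-a3 (adjusted p = 0.0951) and -1.28 ± 0.39 for Alas2 (adjusted p = 0.0951). With a filter of 500 or with equal array medians Hbb passed the threshold, at adjusted p of 0.0489 and 0.0464, and it also passed without the young, the adult or the older 3 days array (adjusted p = 0.0453, 0.0476 and 0.013) and without the young 4 weeks array (0.048). Without the older 3 days array Alas2 passed as well (adjusted p = 0.0402). Adult against young gave 0 of 5, where 0.0% of the probe sets tested were called, with 3 of 5 at an unadjusted p under 0.05, and older against adult gave 0 of 5 (1.35% called lower), with 0 of 5 at an unadjusted p under 0.05.

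Split by period, older rats were lower than young rats at 1 and 2 weeks in Hbb, by 4.09-fold (log2 -2.03 ± 0.31, limma adjusted p = 0.035), the one probe set called, where 0.15% of the probe sets tested were called lower. The others had log2 differences of -2.95 ± 0.59 and -1.18 ± 0.38 for Slc4a1, -2.25 ± 0.75 for Hba-a3 and -2.10 ± 0.60 for Alas2, with adjusted p between 0.0702 and 0.232. The call of Hbb was lost in 8 of the 12 fits that left out 1 array, which were those without any 1 of the older arrays, the young 4 or 6 weeks arrays or the adult 4 or 6 weeks arrays, with adjusted p between 0.0649 and 0.552. Without the young 1 week array 3 probe sets were called, Hbb with Hba-a3 (adjusted p = 0.0474) and the first Slc4a1 probe set (0.00157). The call was also lost with a floor of 200, with no filter and with no replicate block.

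At 4 and 6 weeks limma called 0 of 5 probe sets in older against young rats (0.921% called lower), and 1 of 5 had an unadjusted p under 0.05. Hbb, Hba-a3 and Alas2 had log2 differences of -0.58 ± 0.31, -0.96 ± 0.75 and -0.83 ± 0.60, while the Slc4a1 probe sets had 0.50 ± 0.59 and 1.13 ± 0.38. Without the older 6 weeks array the differences of Hba-a3 and Alas2 were 0.14 and 0.32, on the other side of 0. The change in the age difference between the periods was 3.45 ± 0.83 and 2.31 ± 0.54 for Slc4a1 and 1.46 ± 0.44 for Hbb on the log2 scale, in a comparison added after the data were seen. It was called for 0 of 5 probe sets and for 0.0% of all, with adjusted p of 0.232, 0.232 and 0.388, and 3 of 5 had an unadjusted p under 0.05. Without the young 1 week array the first Slc4a1 probe set passed (adjusted p = 0.00456). The age difference after fracture against that without fracture was called for 0 of 5 probe sets (0.964% called lower), with 3 of 5 at an unadjusted p under 0.05, and it rests on 1 array per age without fracture.

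**Figure D3:**
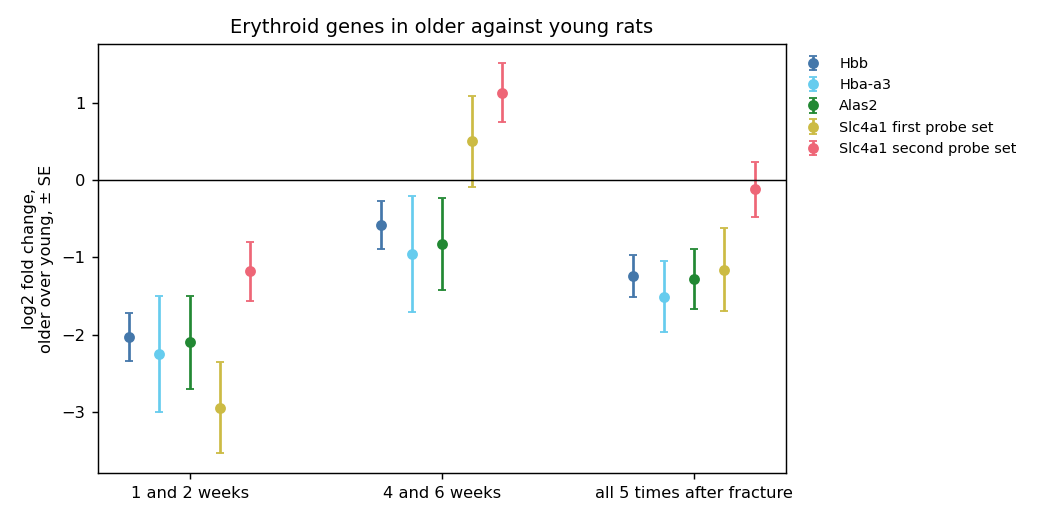
Log2 fold change of older over young rats (points) ± SE (bars) for the 5 tested probe sets at 1 and 2 weeks, at 4 and 6 weeks and over all 5 times after fracture. All 5 lie below 0 at 1 and 2 weeks, and the 2 Slc4a1 probe sets lie above 0 at 4 and 6 weeks.

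Whether the members kept 1 ratio to each other depended on the probe sets used. The mean log2 signal of Alas2 and Slc4a1 minus that of Hbb and Hba-a3, over all probe sets of each gene, was lower at 4 and 6 weeks than at 1 and 2 weeks by 0.97 in young, 1.10 in adult and 0.76 in older rats. The mean difference was -0.94 (exact two-sided permutation test within age, p = 0.00926, the smallest that its 216 arrangements allow). With the brightest probe set of each gene alone the difference was -0.10 (exact permutation p = 0.704), so the result depends on the dimmer Slc4a1 probe sets, of which the third lay mostly below the floor of 100. Without any 1 age it was between -1.03 and -0.86, where the smallest exact p is 0.0556. At 6 weeks the value was lower than without fracture at all 3 ages with both choices, at -3.44, -3.30 and -2.85 against -2.25, -2.62 and -2.41 in young, adult and older rats with all probe sets, and this was not tested.

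**Figure D4:**
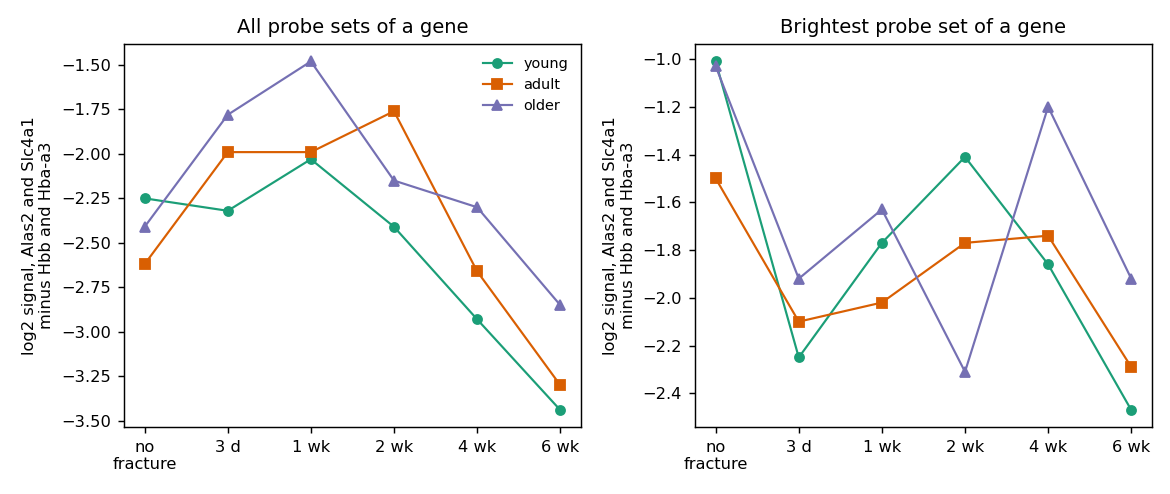
Mean log2 signal of Alas2 and Slc4a1 minus that of Hbb and Hba-a3 in each array, by time and age, with all probe sets of a gene (left) and with the brightest (right). The 6 weeks points lie below those without fracture of the same age in both panels.

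Of 3 other globin genes tested, 2 fell at 1 week, where 10.5% of the probe sets tested were called lower. Hbb-b1, a second beta globin gene, averaged 4887 ± 2480 at 1 week against 27909 ± 3470 without fracture (SD, n = 3 each), and fell by 2.67 ± 0.41 on the log2 scale (limma adjusted p = 3.14e-04). Hbg1, a gamma globin gene, was dim and had 25.6, 37.1 and 22.1 at 1 week in young, adult and older rats, against 183, 119.6 and 326 without fracture, at least 1.93-fold lower against the floor (adjusted p = 0.0468). The probe set that carries 2 alpha globin symbols averaged 8877 ± 4679 at 1 week against 32922 ± 4017 without fracture. The one with 4 beta globin symbols averaged 11264 ± 3685 against 18559 ± 1350. Globin genes are near-identical copies, so a probe set can read the RNA of its neighbours, and a value cannot be given to 1 copy with certainty.

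Other genes of the red cell fell with them. Of 11 tested genes of the red cell membrane and cytosol, 9 fell and 1 rose at 1 week, where 10.5% of all probe sets tested were called lower and 14.3% higher, with a median log2 change of -1.99 against 0.01 over all probe sets tested. Rhd, a Rhesus blood group protein, fell 13.3-fold (log2 -3.74 ± 0.50), Car2, a carbonic anhydrase, fell 7.05-fold and Epb41, which ties the membrane skeleton to its anchors, fell 5.15-fold. Rhag, the partner of the Rhesus protein, fell at least 4.93-fold against the floor of 100. The gene that rose was Slc29a1, a nucleoside transporter found in many cells, at 1.60 on the log2 scale, and it stayed higher than without fracture to 6 weeks (1.16). At 4 and 6 weeks against 1 and 2 weeks 6 of the 11 rose and 0 fell. Over all probe sets tested 6.58% were called higher there and 5.61% lower.

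Heme synthesis genes other than Alas2 fell too. All 4 tested fell at 1 week, with a median of -1.68, and at 3 days and 2 weeks as well. The shares called lower over all probe sets tested were 10.5%, 19.7% and 8.27% at these times. Alad, which makes porphobilinogen, had 311, 290.2 and 269 at 1 week in young, adult and older rats, against 1706, 623 and 2208 without fracture, and fell 4.59-fold. Ppox and Urod, which act later in the pathway, fell 3.44-fold and 2.99-fold. Alas1, the form of the first enzyme used outside red cells, fell 2-fold (log2 -1.0 ± 0.28, limma adjusted p = 0.0149). In older against young rats at 1 and 2 weeks limma called 1 of the 4 heme genes lower, Alas1 (log2 -1.86 ± 0.31, adjusted p = 0.035), and 1 of the 11 red cell genes, Car2 (-1.64 ± 0.28, adjusted p = 0.035), where 0.15% of the probe sets tested were called lower. Both calls ended without the older 1 week or the older 2 weeks array, where 0 of all 4669 probe sets were called in either direction. Car2 had 184 and 226 at 3 days in adult and older rats, and 1113 and 1599 at 2 weeks. The first Slc4a1 probe set had 131 and 134, then 184 and 126, so Car2 did not follow it there. Which cells gave the Car2 signal was not tested.

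Among 5 tested regulators of red cell formation 2 fell at 1 week. Gata1 had 83.2, 89.3 and 78.4 at 1 week in young, adult and older rats, against 811, 526 and 1508 without fracture, and fell at least 8.63-fold against the floor of 100. At 2 weeks it had 395 in the young array, against 64.3 in adult and 82.9 in older rats. Bcl2l1, a survival factor of late precursors, fell by 1.36 ± 0.37 on the log2 scale. Of 8 iron handling genes, 1 fell and 2 rose at 1 week. Tfrc, the receptor that brings iron into the cell, fell 3.66-fold, while Aco1, an iron sensor in its iron-free form, rose 1.78-fold and Cp, a ferroxidase, rose 1.66-fold. Of 4 genes that clear heme and hemoglobin, 1 fell, Hp, which binds free hemoglobin in plasma, by 2.22 ± 0.38. At 1 week 10.5% of the probe sets tested were called lower and 14.3% higher. Set beside these shares, the counts of regulators, iron handling and clearance genes are too small to read as changes of these groups. Hmox1, which breaks heme down, was called higher at 3 days, by 0.77 on the log2 scale, and at none of the other times.

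Over the 18 arrays, among 1818 bright probe sets with 1 symbol, those most like the mean of the 4 members belonged to Rsad2 (r = 0.995 and 0.970), Hbb-b1 (0.983), Rhd (0.971 and 0.968), Ucp2 (0.971), Alox15 (0.958), Adissp (0.957), Pde4c (0.954) and Car2 (0.951), by Pearson's r over log2 signals. The annotation gives 2 probe sets to Rsad2, known as an antiviral gene that interferon induces, and whether they read that gene was not checked and is in doubt, since they followed the globin genes so closely. The more similar of them had 340.3, 321 and 111 at 1 week in young, adult and older rats, against 7450.1, 7036 and 13988 without fracture. The most opposite were Cavin3 (-0.927), Csrp2 (-0.918), Tagln (-0.916), Vcan (-0.913) and Myadm (-0.902). The points share the same arrays and the same 6 times, and these values are descriptions.

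Markers of neutrophils and platelets were low at the same times. All 5 neutrophil genes tested fell at 3 days, 1 week and 2 weeks. Of all probe sets tested, 19.7%, 10.5% and 8.27% were called lower at these times. The defining markers S100a8, S100a9 and RatNP-3b averaged 629, 831 and 2157 at 1 week against 14387, 13257 and 21601 without fracture. Mpo, Elane and Np4 were not analysed here. The summed signal of the 5 neutrophil genes measured stood at 15.8% of the array without fracture in young, 1.8% in adult and 1.0% in older rats at 2 weeks. At 4 weeks the sum stood at 62.9%, 20% and 7.67%. Without fracture the sum was 48566.5, 44220 and 85174, so the older shares had the highest base. At 4 weeks Hbb stood at 79.3%, 76.7% and 65.7% at the same ages, Alas2 at 69%, 48.9% and 50.5%, and the first Slc4a1 probe set at 40%, 74.9% and 43.5%, which in young rats was below the neutrophil sum. In older rats at 6 weeks the neutrophil sum was at 14.5%, near Alas2 (14.3%) and Hba-a3 (15.5%) and below Hbb (59.9%). These differences were not tested. Of 3 megakaryocyte and platelet genes 2 fell at each of 3 days, 1 week, 2 weeks and 4 weeks. At 4 weeks 1.43% of all probe sets tested were called lower. The sum over 5 platelet genes was 36.9%, 44.7% and 13.7% of no fracture at 4 weeks. The 12 lymphocyte genes summed to between 1493 and 1759 at 1 week against 1737 to 3341 without fracture, and to between 3216 and 3631 at 4 weeks. Of 6 lymphocyte genes tested, 3 were called lower at 1 week, where 10.5% of all probe sets tested were. Cd3d, a defining T cell gene, averaged below the floor at every time. Cd79b, another defining lymphocyte gene, averaged 358 without fracture, 40.5 at 1 week, which is below the floor, and 595 at 4 weeks.

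**Figure D5:**
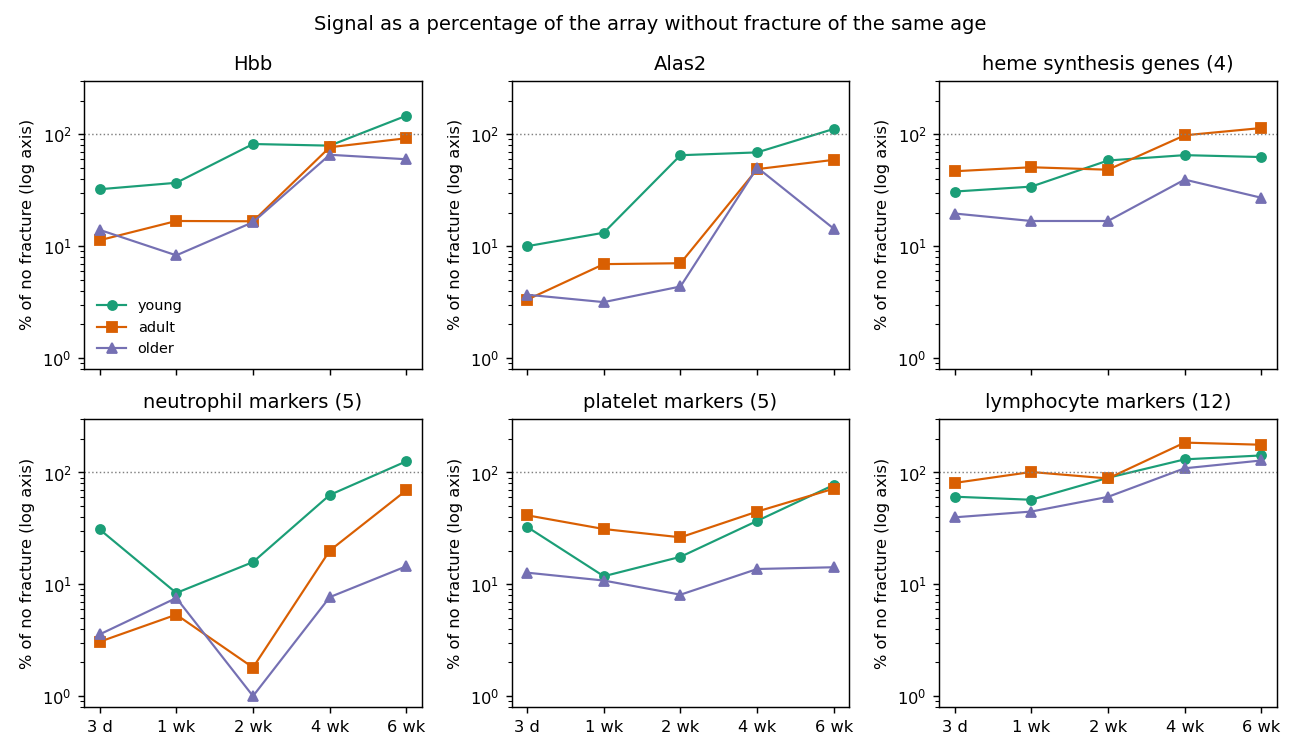
Signal of Hbb and Alas2 and summed signal of heme synthesis, neutrophil, platelet and lymphocyte genes, as a percentage of the array without fracture of the same age (log axis), with 1 line per age. At 4 weeks Hbb is at 65.7%, Alas2 at 50.5% and the neutrophil sum at 7.67% in older rats. For Alas2 and the neutrophil sum the older array without fracture gave the highest base of the ages.

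Markers of other tissues moved too. Of 12 fibrous matrix genes 10 rose at 3 days, 12 at 1 week and 11 at 2 weeks. Of all probe sets tested, 24.5%, 14.3% and 12.8% were called higher at these times. The fibrous matrix genes summed to 127902 to 196648 at 1 week against 20989.5 to 89628 without fracture. Of 13 skeletal muscle genes 12 fell at 3 days, 1 at 1 week and 0 at 2 weeks. The shares called lower over all probe sets tested were 19.7%, 10.5% and 8.27%. The muscle genes summed to 50097 to 76326 at 3 days and to 79734 to 189416 at 1 week, against 114991 to 255663 without fracture, so the ranges overlapped at 1 week. The part of these tissues in the changes of the erythroid genes was not tested. Array medians ran between 137 and 183, and the Gapdh 5′ probe set stood at 0.257 of the 3′ probe set on the young 6 weeks array and at 0.650 or more of it on the others. That array had the highest Hbb signal of all, and the part of its RNA quality in that was not tested. Present and absent calls were not used.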

How the data were processed

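The authors hybridized RNA of 2 pooled rats to each Affymetrix rat array. They deposited intensities, which are Microarray Suite 5.0 signals brought to an average of 500 per array. Present and absent calls were not used, and other series of arrays of the study were not used here. Symbols came from the platform annotation, updated by gene identifier for 6994 probe sets. Of 8799 probe sets, 7018 had 1 symbol, 308 had several and 1473 had none.

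A floor of 100 was applied, then log2. The 59 controls were left out, and a probe set was tested if it reached 200 on 3 or more arrays. Times were compared on 18 arrays with age as the replicate block, ages on 15 arrays with time as a term and periods on 12 arrays, by limma 3.58.1 (trend) in R 4.3.3 with Benjamini-Hochberg adjustment over 4669 probe sets and a threshold of 0.05. The sample titles give series, age and time but no replicate number, so each age was given the same number at every time here. Rats differ between times. With 1 array per age and time, the error of a fit is what its age, time or period terms leave over. It is not a spread between like samples. The fits of 1 week against no fracture and of older against young after fracture were tried on simulated data. The period fits and the permutation test were not. The number of arrays limits the precision. Genes were named by a rule, which took all member probe sets, up to 4 called members of each red cell, heme or iron list with the largest change at 1 week, and the 10 most similar and 5 most opposite probe sets with a mean signal of 500 or more. Slc29a1, Hmox1, S100a8, S100a9, RatNP-3b, Cd3d and Cd79b were named after their values were seen. The members and lists were chosen with earlier results of these data known. Alternatives were floors of 20 and 200, other filters, quantile normalization, equal array medians, robust moderation, no block, the methods' t-test, and each age or array left out. Promoter windows were read from RefSeq GRCr8. Figures used Python 3.11.15 and matplotlib 3.10.9.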

Additional observations from a re-analysis of the deposited data

Results flagged for a closer look

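Among the 5 arrays after fracture of an age, 1 array stood far from the other 4 in 3 of 18 groups tested. These 5 arrays are 5 times of 1 changing course and the groups share arrays, so the rate of about 1 in 20 that chance gives among like samples does not apply to them. Alas2 was 7791 on the older 4 weeks array. The second Slc4a1 probe set was 1056.5 on the young 2 weeks array and 1643 on the older 4 weeks array. These are the arrays at which the other erythroid probe sets of the same age had also left their low level, and no cause was tested.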

How the results depend on the processing

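With each array or age left out, the count of 5 probe sets called stayed at 5 at 3 days and lay between 4 and 5 at 1 week, 0 and 5 at 2 weeks, 0 and 0 at 4 weeks and 0 and 1 at 6 weeks. It lay between 1 and 5 for 4 and 6 weeks against 1 and 2 weeks, 0 and 2 for older against young after fracture, 0 and 3 at 1 and 2 weeks, and 0 and 1 for the change of the age difference between periods. The lowest counts of 2 weeks and of the return came without the adult arrays. Fewer of all probe sets were called there too, 249 against 984 and 62 against 569. The methods' t-test called 4 probe sets at 3 days (848 of all 4669), 0 at 1 week (1 of all) and 0 at 2 weeks (18 of all). For older against young after fracture a filter of 500 gave 1 call and equal array medians 1. At 1 and 2 weeks a floor of 200 gave 0, no filter 0 and no replicate block 0, and without the replicate block no other count moved by more than 1.5 times. The ratio of Alas2 and Slc4a1 to globin was -0.10 (exact permutation p = 0.704) with the brightest probe set per gene and between -1.03 and -0.86 without 1 age.

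Some log2 differences that were not called changed sign. Hbb at 4 weeks was 0.05 with quantile normalization. In older against adult rats the first Slc4a1 probe set was 0.10 with a floor of 200, and the second was -0.03 with quantile normalization and -0.10 with equal medians. With arrays or ages left out, the second Slc4a1 probe set lay between -0.95 and 0.17 at 4 weeks, Hba-a3 between -1.33 and 0.19 at 4 weeks and between -1.32 and 0.52 at 6 weeks, and Hbb between -0.53 and 0.22 at 6 weeks. In older against young rats the second Slc4a1 probe set lay between -0.51 and 0.26 after fracture, and at 4 and 6 weeks Alas2 lay between -1.98 and 0.32 and Hba-a3 between -2.06 and 0.14. In older against adult rats Alas2 lay between -0.42 and 0.15, the second Slc4a1 probe set between -0.23 and 0.30, the first between -0.49 and 0.32 and Hba-a3 between -0.58 and 0.14. The second Slc4a1 probe set lay between -0.58 and 0.19 in adult against young rats, and the change of the age difference of Hba-a3 between periods lay between -0.27 and 2.85. Of the 10 most similar probe sets, 6 were shared when Spearman's rho was used. The cause of these changes was not tested. At 4-fold, quantile normalization gave 4 probe sets for the young 2 weeks array. Signals under the floor of 100 have no order.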
